A study of Mus musculus with 3 samples.

Results

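The Col13a1-type alveolar fibroblasts of the postnatal lung were 127 single cells of the 7642 cells kept from the lungs of 3 mice. They were chosen by their raw unique molecular identifier (UMI) counts, in which 1 UMI stands for 1 captured RNA molecule. A member held at least 6 UMIs of *Inmt*, *Tcf21*, and *Col13a1* together and at least 3 UMIs of *Col1a1* and *Col1a2* together. It held at most 2 UMIs of *Aspn*, at most 2 of *Agt* and *Stc1*, at most 4 of *Myh11*, and at most 2 of *Higd1b* and *Cox4i2*, with no UMI of *Ptprc*, *Cdh5*, or *Epcam*. These 14 genes fixed who was a member, so their levels are given as a description without a test. The study mapped *Dll4* in lung development and used scRNA-Seq of whole lung to ask which cells express it. Its single-cell arm held 1 group, C57BL/6 pups raised in room air (RA) between P1 and P14 and taken on that last day, with 1 library from each of 3 animals labelled mice 2, 3, and 4. The mice are the replicates, there was no second condition, and freshly dissociated whole lung was loaded with no sort for fibroblasts. The comparator was every other cell with at least 5 UMIs of *Col1a1* and *Col1a2*, called other collagen cells here, of which there were 1392.

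Fibroblasts of the alveolar wall lie in the septa beneath the epithelium and the capillaries. *Tcf21*, a basic helix-loop-helix transcription factor, and *Col13a1*, a transmembrane collagen, mark the fibroblasts of the alveolar interstitium, some of which store lipid and retinoid and have been called lipofibroblasts. *Inmt* encodes a methyltransferase of indole amines, *Npnt* the basement membrane ligand nephronectin, and *Mfap4* a microfibril glycoprotein. In the same septa, alveolar myofibroblasts carry contractile genes and lay down elastin, and pericytes wrap the capillaries. Adventitial fibroblasts surround the vessels and airways.

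The members numbered 37, 49, and 41 in mice 2, 3, and 4. They made up 1.55% of the kept cells of mouse 2 (exact 95% binomial interval 1.09% to 2.13%), 1.88% of mouse 3 (1.40% to 2.48%), and 1.54% of mouse 4 (1.11% to 2.09%), a mean of 1.66% ± 0.194 (SD, n = 3 mice). The 3 intervals overlapped. In the order written, the threshold on the 3 marker genes took the 7642 cells to 222, the collagen threshold to 203, *Aspn* to 145, *Agt* and *Stc1* to 141, the pericyte genes to 138, and the immune, endothelial, and epithelial genes to 135, 131, and 127. *Myh11* removed no cell at its step. All 3 marker genes were found in 105 members, 2 of them in 18, and 1 of them in 4.

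Members had high UMI counts. Their median UMI count per cell was 14982, 11413, and 14698 in mice 2, 3, and 4, against 10566, 11132, and 10408 in other collagen cells. Each mouse's members lay above the other collagen cells of the same mouse, and the groups did not overlap (exact 2-sided permutation test, p = 0.1, the smallest that 3 against 3 allows). In mouse 3 the order was reversed with a threshold of 3 UMIs of the marker genes (10784 in members and 11164.5 in the others), and also without the 9 members with 10 or more UMIs of *Col14a1*, *Dcn*, and *Serpinf1* (10576 and 11132). A rule on raw UMIs favours deep cells, and its part in this difference was not tested. Summed over cells, the members gave 529172, 592293, and 545850 UMIs, so 1 UMI stood for 1.89, 1.69, and 1.83 CPM, the count scaled to 1000000 UMIs of the sum, in the 3 mice. Levels below are CPM of these sums for mice 2, 3, and 4, in that order. The libraries shared 5, 2, and 5 cell barcodes in pairs, none of them a member's. A doublet score marked 1 member.

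Both label markers that the rule did not use were high in the members. *Npnt* stood at 5342, 6108, and 5194 CPM in members and at 274, 502, and 342 CPM in other collagen cells. *Mfap4* stood at 22494, 21542, and 19364 CPM in members and at 1178, 2097, and 1094 CPM in the others. For both genes the lowest member value was far above the highest value of the comparator. On the log2 scale the differences were 4.03 (SE 0.198) for *Npnt*, adjusted p = 6.5e-08, and 4.00 (SE 0.232) for *Mfap4*, adjusted p = 1.93e-07, by edgeR's quasi-likelihood test over all genes. By UMIs *Mfap4* was the second and *Npnt* the 14th gene of the members. At least 1 *Npnt* UMI was found in 97.7% ± 2.45 (SD, n = 3 mice) of members, in 34.9% ± 2.15 of other collagen cells, and in 2.01% ± 0.136 of B cells, which should lack it and were read at a median of 3902 to 4132.5 UMIs per cell. With each cell thinned to 2000 UMIs, which left out 4 members, 25 other collagen cells, and 63 B cells, the 3 shares were 96.2%, 20.4%, and 0.912%. The other 3 of the 5 label markers chose the cells. These 2 were named with earlier results of these data known, and they may go with the other 3 in single cells. Their levels and p-values therefore describe the members and are not an independent check of the label.

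The genes that chose the cells were high where the rule set a minimum. *Inmt* stood at 1553, 1734, and 1649 CPM in members against 52.3, 144, and 49.7 CPM in other collagen cells, *Tcf21* at 960, 907, and 845 against 65.7, 108, and 55.4 CPM, and *Col13a1* at 618, 535, and 524 against 22.3, 49.5, and 28.6 CPM. *Col1a1* (4356, 5435, and 5034 against 4549, 4708, and 3567 CPM) and *Col1a2* (4180, 4888, and 4818 against 4368, 4648, and 3759 CPM) overlapped between the groups. *Aspn*, *Agt*, *Myh11*, *Higd1b*, and *Cox4i2* were each under 26 CPM in every mouse's members, by choice. In the 127 members the summed UMIs of the 3 marker genes ranged from 6 to 192 with a median of 38, and *Npnt* UMIs from 0 to 225 with a median of 70. *Npnt* was missing in 3 members, and *Mfap4* in none (2 to 825 UMIs, median 263).

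**Figure D1:**
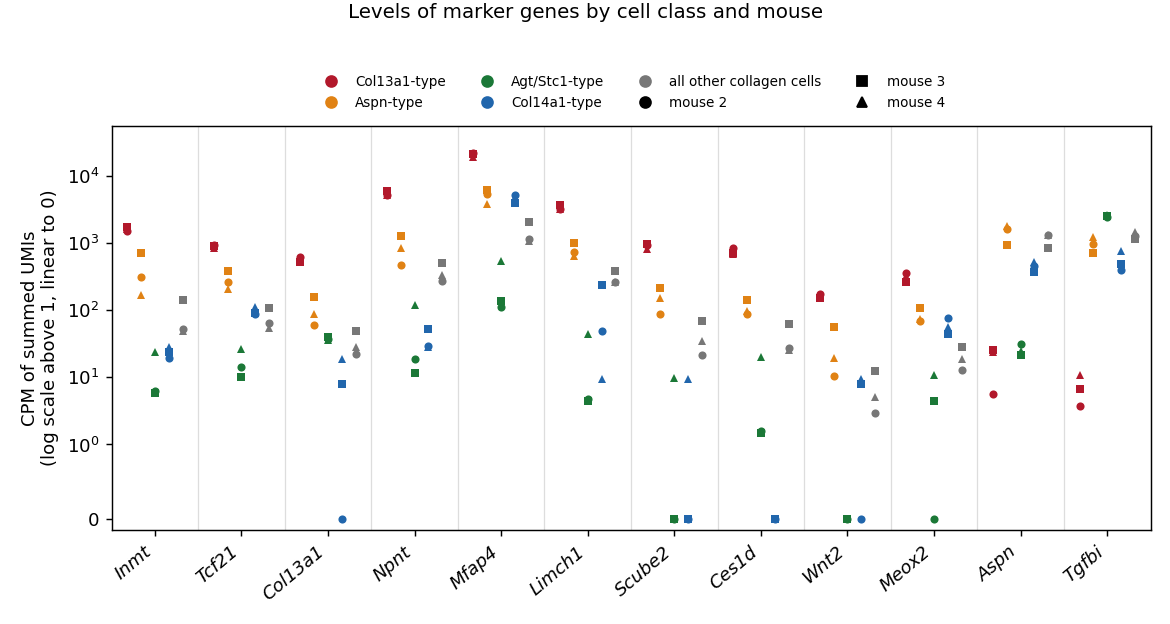
CPM of summed UMIs (vertical axis, log scale above 1 and linear down to 0) of marker genes in each cell class, 1 point for each of the 3 mice. The Col13a1-type points of *Npnt* lie between 5194 and 6108 CPM and those of *Mfap4* between 19364 and 22494 CPM, above every point of the other classes.

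The promoters of these genes are shown because the 4 genes were high together in the members, the first 3 by choice. Each is the run of 150 bases that ends just before the gene as GENCODE M21 annotates it, on the minus strand and read 5′ to 3′, from the RefSeq promoter table for GRCm38.p6. The run of *Inmt* is chr6:55175044-55175193, of *Tcf21* chr10:22820175-22820324, of *Col13a1* chr10:61979109-61979258, and of *Npnt* chr3:132950292-132950441. Capitals mark the letters TATAAA, searched on both strands.
Inmt: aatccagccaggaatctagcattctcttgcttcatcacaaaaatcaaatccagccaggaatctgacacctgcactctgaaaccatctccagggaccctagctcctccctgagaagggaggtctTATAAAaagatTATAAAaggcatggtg
Tcf21: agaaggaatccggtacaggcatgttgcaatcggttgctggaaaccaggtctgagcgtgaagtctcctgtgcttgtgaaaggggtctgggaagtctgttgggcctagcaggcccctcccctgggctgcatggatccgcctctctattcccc
Col13a1: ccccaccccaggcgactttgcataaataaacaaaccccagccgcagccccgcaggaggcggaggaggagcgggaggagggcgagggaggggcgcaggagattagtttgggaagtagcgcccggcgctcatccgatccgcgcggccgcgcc
Npnt: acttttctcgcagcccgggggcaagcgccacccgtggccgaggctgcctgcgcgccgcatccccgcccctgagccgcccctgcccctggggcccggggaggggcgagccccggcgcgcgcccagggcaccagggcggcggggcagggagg
The *Inmt* run held TATAAA at 27 and 16 bases before the GENCODE start of the gene, which is 80 and 69 bases before the RefSeq start. In the 250 bases before each RefSeq start, *Col13a1* held the motif once, 237 bases before its start and outside the run shown, and *Tcf21* and *Npnt* did not hold it. Of 32851 promoters in the table, 12.4% held TATAAA on either strand. The GC content of the 250 bases was 48.0% for *Inmt*, 52.4% for *Tcf21*, 68.8% for *Col13a1*, and 74.0% for *Npnt*, with a median of 52.4% over all promoters. *Mfap4* was not in the table.

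On GRCm38 with GENCODE M21 the *Inmt* gene spans chr6:55170626-55175043, *Tcf21* chr10:22817281-22820174, *Col13a1* chr10:61838236-61979108, and *Npnt* chr3:132881745-132950291, all on the minus strand. *Mfap4* spans chr11:61485431-61488900 on the plus strand.

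The threshold of 6 UMIs cut through a small group of cells. Exactly 6 UMIs of the 3 genes were found in 7 members, whose pooled levels were 1689 CPM for *Npnt*, 8057 CPM for *Mfap4*, 26770 CPM for *Col1a1*, and 3416 CPM for *Dcn*. Just outside, 8 cells met every other clause with 3 to 5 UMIs, at 2813 CPM for *Npnt*, 9766 CPM for *Mfap4*, 3950 CPM for *Col1a1*, and 27.1 CPM for *Dcn*. Pooled, the cells just inside had the higher *Col1a1* and *Dcn* levels, those just outside the higher *Npnt* and *Mfap4* levels. Such pooled levels can rest on a few cells, since only 13 of the 127 members had a *Dcn* UMI. *Aspn* alone kept out 37 further cells (10, 16, and 11 in mice 2, 3, and 4), with 2127 CPM of *Npnt* and 2709 CPM of *Dcn*.

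Among members, the cells were not uniform. In 9 members (3, 4, and 2 in the 3 mice) there were 10 or more UMIs of *Col14a1*, *Dcn*, and *Serpinf1*, genes of adventitial fibroblasts, and these 9 cells held 94.9% of all *Dcn* UMIs of the members. Pooled, they stood at 1920 CPM of *Dcn*, 920 CPM of *Col14a1*, and 20801 CPM of *Col1a1*. The other 118 members stood at 9.15 CPM of *Dcn*, 5.23 CPM of *Col14a1*, and 3544 CPM of *Col1a1*. *Npnt* went the other way, at 935 CPM in the 9 cells and 5980 CPM in the 118, as did *Mfap4* at 5257 and 22552 CPM. The 9 cells were picked by these genes, and the values describe them without a test.

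The comparator was mixed as well. Of the 1392 other collagen cells, 828 had 3 or more UMIs of *Aspn*, 761 had 3 or more of *Agt* and *Stc1*, 479 had 5 or more of *Myh11*, 169 had 3 or more of *Higd1b* and *Cox4i2*, and 134 had a UMI of *Ptprc*, *Cdh5*, or *Epcam*. It also kept 76 cells (22, 28, and 26) that met the threshold on the 3 marker genes but failed another clause. These 76 cells held 55.0% of the comparator's *Npnt* UMIs, 58.3% of its *Mfap4* UMIs, and 90.4% of its *Wnt2* UMIs. Without them, the log2 difference was 5.04 for *Npnt* and 5.13 for *Mfap4*.

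**Figure D2:**
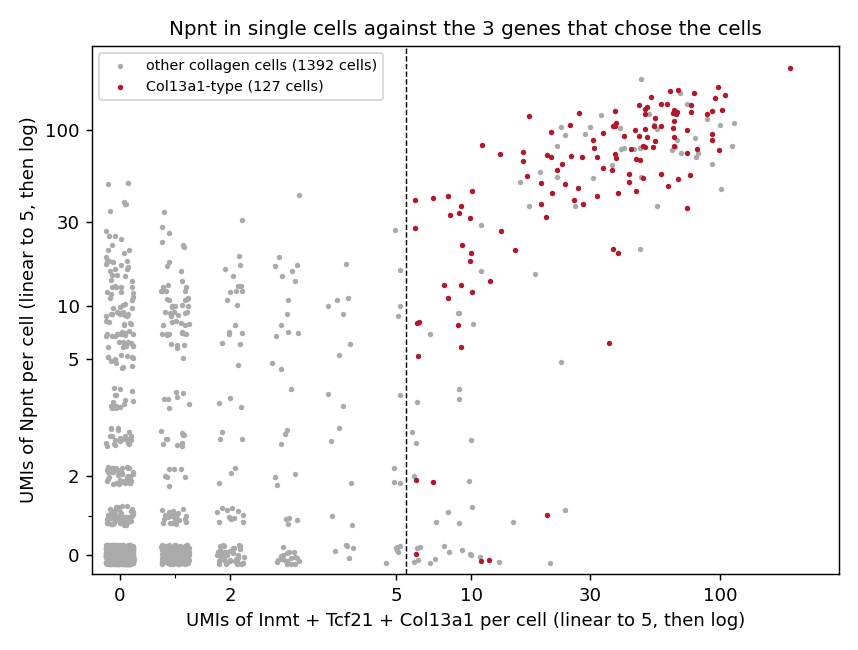
UMIs of *Npnt* in each cell (vertical axis) against summed UMIs of *Inmt*, *Tcf21*, and *Col13a1* in the same cell (horizontal axis), both linear to 5 and then on a log scale, for members and other collagen cells, with a line just below the threshold of 6 and points moved slightly at random so that they do not hide each other. Members lie right of the line with a median of 70 *Npnt* UMIs, and 76 other collagen cells also lie right of it.

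Across the genes tested against other collagen cells, 1666 of 11533 (14.4%) were higher in the members and 1978 (17.2%) were lower, 31.6% in all, at an adjusted p under 0.05, with the 14 genes of the rule left out of the counts. At least 4-fold differences were held by 323 of the higher and 929 of the lower genes. The median log2 difference of all genes was -0.036. A cell was a member for its level of the 3 marker genes, so genes that go with them in single cells differ in part through that choice. The same holds for genes that go with those for which the rule set a maximum, since cells above it stayed in the comparator. The p-values set the mean difference between the classes against the spread of the mouse sums within each class. The main fit did not pair the classes by mouse. With each cell thinned to 2000 UMIs, 577 genes were higher and 618 lower.

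**Figure D3:**
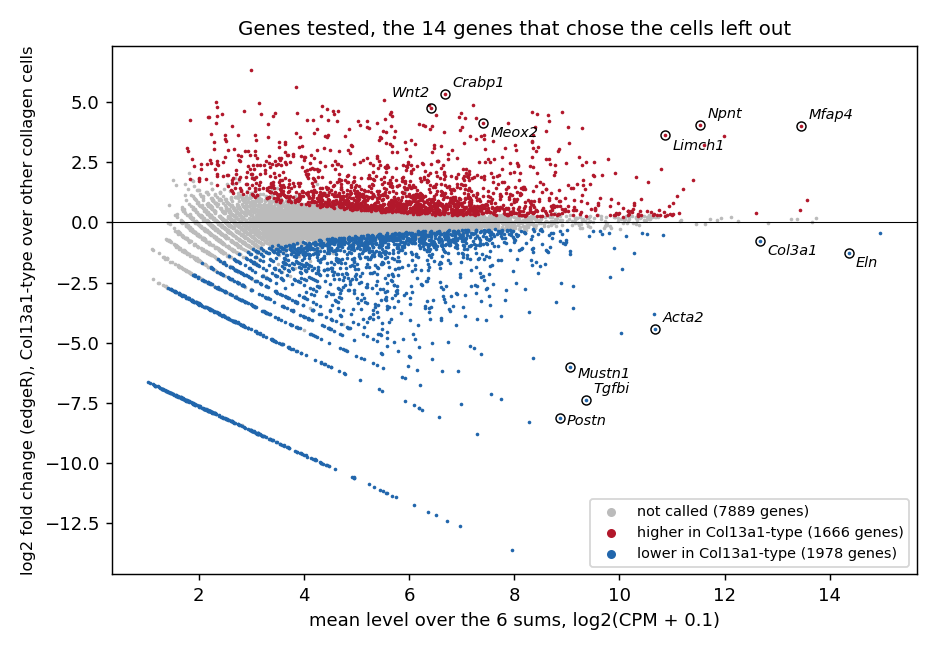
Log2 difference of members over other collagen cells (vertical axis, edgeR) against the mean level of each gene tested, as log2(CPM + 0.1) (horizontal axis). Coloured points are the 1666 higher and 1978 lower genes, and the genes below -9 have no UMI in any member.

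Genes listed for alveolar fibroblasts were higher almost throughout, 18 of 20, against 14.4% of all genes, with a median log2 difference of 3.5. Like the other lists here, this one was chosen with earlier results of these data known. It also holds the label markers *Npnt* and *Mfap4*, so its count is a description and not independent support for the label. *Limch1*, an actin-binding regulator of contractility, stood at 3273, 3789, and 3244 CPM in members and at 262, 391, and 268 CPM in other collagen cells (log2 3.62, SE 0.159, adjusted p = 3.31e-08). *Scube2*, a secreted protein that helps release hedgehog ligands, stood at 937, 974, and 837 CPM against 21.4, 69.4, and 35.0 CPM (log2 4.60). *Ces1d*, a carboxylesterase, stood at 866, 723, and 705 CPM against 27.8, 62.8, and 26.0 CPM (log2 4.45). In each of the 3 genes the groups were far apart and mouse 3 gave the highest comparator value. The 76 comparator cells that met the marker threshold held 49.1% of its *Limch1*, 83.1% of its *Scube2*, and 76.9% of its *Ces1d* UMIs. The smallest difference of the 18 was that of *Fmo2*, a flavin monooxygenase (1788, 1911, and 1548 against 984, 1015, and 976 CPM, log2 0.95). *Enpp2*, which encodes the lysophosphatidic acid-producing enzyme autotaxin, was the exception in direction, at 7.56, 6.75, and 12.8 CPM in members and 168, 152, and 157 CPM in the others (log2 -4.01, adjusted p = 8.32e-08). *Gdf10* did not pass the test (20.8, 30.4, and 69.6 against 38.8, 53.6, and 26.5 CPM).

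The genes with the largest differences upward, by a fixed rule, were led by *Crabp1*, a cellular retinoic acid binding protein. It stood at 238, 179, and 185 CPM in members and at 3.13, 10.4, and 3.40 CPM in other collagen cells (log2 5.32, SE 0.322, adjusted p = 2.59e-07, and log2 6.12 without mouse 3). The other named members of the group were *RP23-378D16.4*, *C7* (a terminal complement component), *Slc7a10* and *Slc38a5* (amino acid transporters), *Wnt2*, *Scube2*, *Ppp4r4*, *Upk1b*, *Nebl*, *AI504432*, *Ces1d*, *Phex*, *Prom1*, and *Ablim3*. They ran from 33.7-fold for *RP23-378D16.4* down to 20.8-fold for *Ablim3*, and every member value of each gene was above every comparator value, as the rule required. *Slc38a5* was at 665, 594, and 592 CPM against 18.3, 42.6, and 25.2 CPM, and *Nebl*, an actin-binding nebulin relative, at 616, 702, and 663 against 16.0, 48.2, and 31.9 CPM.

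The 15 genes with the largest differences downward had no UMI in any member, so each fold is a bound against 3 UMIs over all members. *Actc1*, the cardiac actin, was at 584, 447, and 458 CPM in other collagen cells, at least 276-fold lower in the members. *Egfem1* (201, 183, and 250 CPM) was at least 119-fold lower, *Lmcd1* (185, 159, and 150 CPM) at least 91.3-fold, and *Rgs5*, a pericyte regulator of G protein signalling (153, 136, and 121 CPM), at least 75.7-fold. The others were *Col2a1*, *Itih4*, *Trim67*, *Thsd4*, *Lgr6*, *Sfrp2*, *Dusp10*, *Fgf18*, *Grp*, *Gap43*, and *Prkcq*, with bounds from 96.1-fold for *Col2a1* to 33.7-fold for *Prkcq*. Mouse 3 gave the highest *Col2a1* level of other collagen cells (166, 322, and 59.3 CPM), and its fitted difference moved by over 1.5 times without that mouse. *Col2a1* encodes the cartilage collagen.

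Some genes of lipid storage were higher in the members. Of 15 lipofibroblast and lipid droplet genes tested, 8 were higher and 4 lower (2 lower without mouse 4), against 14.4% and 17.2% of all genes, with a median log2 difference of 0.966. *Plin2*, the coat protein of lipid droplets, stood at 113, 99.6, and 123 CPM against 30.6, 41.8, and 38.2 CPM in other collagen cells (log2 1.73, adjusted p = 4.44e-06). *Lpl*, lipoprotein lipase, stood at 198, 108, and 165 against 66.1, 58.4, and 56.8 CPM (log2 1.5). *Angptl4*, which inhibits that lipase, stood at 217, 191, and 189 against 95.6, 62.7, and 87.0 CPM (log2 1.41). All 3 were higher in every mouse. *Pparg*, the adipogenic nuclear receptor, was higher at a very low level, 3.78, 10.1, and 3.66 CPM against 0.348, 0.964, and 0.928 CPM (log2 3.07, SE 0.76), where 1 UMI was worth up to 1.89 CPM. The fatty acid importer *Cd36* was lower at 0, 5.07, and 3.66 CPM against 49.0, 68.6, and 85.4 CPM, a call that was lost when comparator cells with a *Ptprc*, *Cdh5*, or *Epcam* UMI were left out. *Lpar1*, a lysophosphatidic acid receptor, was lower at 79.4, 69.2, and 91.6 against 162, 142, and 160 CPM (log2 -0.82), and *Cidec* was at 0 in all members.

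Some retinoid genes were far higher in the members. Of 14 retinoid genes tested, 5 were higher, *Crabp1*, *Adh1*, *Aldh1a1*, and *Dhrs3* among them, and 3 were lower (1 lower without mouse 3, and 1 without mouse 4), against 14.4% and 17.2% of all genes, with a median of 0.29. *Adh1*, an alcohol dehydrogenase that oxidizes retinol, stood at 620, 532, and 643 CPM against 44.0, 68.2, and 48.0 CPM (log2 3.62, SE 0.156, adjusted p = 2.95e-08). *Aldh1a1*, which makes retinoic acid, stood at 234, 331, and 218 against 18.3, 38.7, and 16.6 CPM (log2 3.57). For both genes the groups were far apart. *Rarb*, a retinoic acid receptor, had no UMI in the members against 9.39, 7.90, and 7.89 CPM, at least 4.66-fold lower, while *Rara* (47.2, 32.1, and 36.6 against 35.3, 39.5, and 41.2 CPM) and *Rarg* did not pass the test. *Stra6* was also at 0 in the members.

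Enzymes of xenobiotic and antioxidant metabolism were more often higher than lower, 9 against 4 of 16 tested, beside 14.4% higher and 17.2% lower of all genes, with a median of 0.841. *Gpx3*, a secreted glutathione peroxidase, stood at 688, 837, and 540 CPM against 128, 162, and 82.2 CPM (log2 2.61, adjusted p = 4.59e-06). *Mgst1*, a microsomal glutathione transferase, stood at 147, 138, and 156 against 42.1, 50.3, and 40.9 CPM (log2 1.86), and *Sod3*, extracellular superoxide dismutase, at 554, 571, and 425 against 320, 307, and 260 CPM (log2 0.94). *Cyp4b1* had no UMI in the members and was at least 8.56-fold lower, and *Por*, the electron donor of the P450 enzymes, was lower at 79.4, 82.7, and 73.3 against 137, 126, and 140 CPM.

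Secreted growth factors went in both directions. Of 24 tested, 13 were higher and 8 lower, with a median of 0.591, against 14.4% and 17.2% of all genes. *Fgf10*, the epithelial growth factor of lung branching, stood at 90.7, 91.2, and 89.8 CPM in members and at 11, 11.2, and 11 CPM in other collagen cells (log2 3.16, SE 0.148, adjusted p = 5.3e-08). *Wnt2*, a Wnt ligand of the distal lung mesenchyme, stood at 176, 155, and 163 against 2.96, 12.5, and 5.11 CPM (log2 4.75, and 5.48 without mouse 3). In the members both genes varied little between mice, and the groups were far apart. *Fgf18* ran the other way, with no UMI in the members against 69.4, 69.0, and 85.9 CPM (at least 41.9-fold lower). *Wnt5a*, a noncanonical Wnt ligand, was lower at 153, 115, and 145 against 483, 474, and 566 CPM (log2 -1.75), and *Wnt11* at 0, 3.38, and 1.83 against 139, 104, and 128 CPM.

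*Vegfa*, an endothelial growth factor, was higher. It stood at 259, 344, and 293 CPM against 63.5, 89.8, and 81.2 CPM (log2 2.07, SE 0.141, adjusted p = 6.2e-07), and *Vegfd*, listed in the files under its older symbol *Figf*, at 624, 657, and 458 against 45.9, 91.8, and 54.5 CPM (log2 3.32). *Angpt1*, the ligand of the endothelial receptor TIE2, stood at 147, 184, and 148 against 100, 83.5, and 81.2 CPM (log2 0.99). *Kitl*, the KIT ligand, stood at 195, 228, and 220 against 53.4, 64.4, and 90.2 CPM (log2 1.76). The groups were apart for all 4 genes, while *Vegfc*, under 10 CPM in both groups, and the chemokine *Cxcl12* (45.4, 60.8, and 76.9 against 87.5, 135, and 82.5 CPM) did not pass the test. The platelet-derived ligand *Pdgfa* (20.8, 32.1, and 22 against 84.0, 84.4, and 82.2 CPM), *Tgfb2*, *Tgfb3*, and *Bmp2* were lower, and *Bmp4* was higher (259, 267, and 266 against 151, 168, and 208 CPM, log2 0.72).

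Among growth factor receptors, 5 of 20 were higher and 9 lower (5 lower without mouse 2), against 14.4% and 17.2% of all genes, with a median of -0.187. The FGF receptors *Fgfr1*, *Fgfr3*, and *Fgfr4* were among the higher ones. *Fgfr4* stood at 132, 169, and 132 CPM against 7.65, 14.1, and 7.43 CPM (log2 4.05, SE 0.231, adjusted p = 1.64e-07), *Fgfr3* at 314, 312, and 324 against 18.1, 36.4, and 31.1 CPM (log2 3.61), and *Fgfr1* at 266, 339, and 313 against 171, 183, and 158 CPM (log2 0.98). *Fgfr2* was lower, at 7.56, 5.07, and 14.7 against 23.5, 22, and 27.7 CPM (log2 -1.30, adjusted p = 0.00945), a call lost without mouse 2 and without mouse 3. *Tgfbr2* was higher, at 368, 361, and 379 against 135, 154, and 146 CPM. *Pdgfrb*, the pericyte receptor of PDGF-B, was lower at 32.1, 35.5, and 53.1 against 711, 467, and 565 CPM (log2 -3.72). *Pdgfra*, used to mark fibroblasts and myofibroblasts, was close, at 365, 388, and 271 against 465, 559, and 509 CPM (log2 -0.44, adjusted p = 0.0224), and the call was lost without mouse 2 and without mouse 4.

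**Figure D4:**
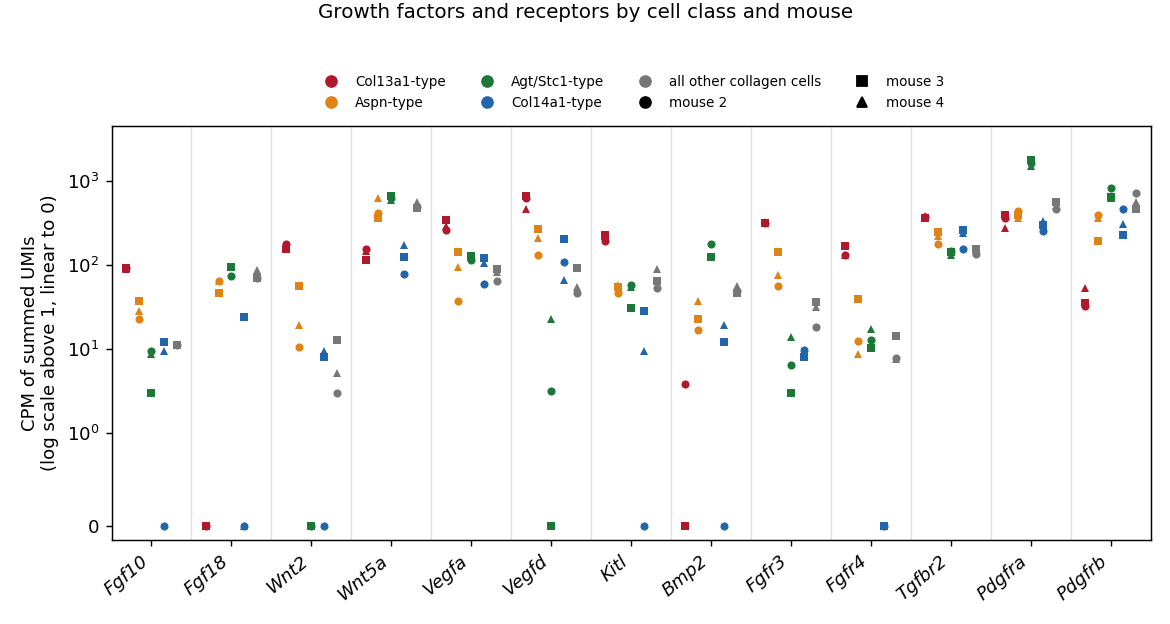
CPM of summed UMIs (vertical axis, log scale above 1 and linear down to 0) of growth factors and receptors in each cell class, 1 point for each of the 3 mice. *Fgf10* lies near 90 CPM and *Wnt2* between 155 and 176 CPM in members, where *Fgf18* is at 0.

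The collagens other than those of the rule were more often lower. Of 15 tested, 3 were higher and 9 lower, against 14.4% and 17.2% of all genes, with a median of -0.724, so the share of higher genes was near that of all genes. The 3 higher genes encode the chains of collagen VI, the beaded-filament collagen at cell surfaces. *Col6a1* stood at 1166, 1312, and 1064 CPM against 688, 678, and 590 CPM (log2 0.99), *Col6a2* at 941, 1126, and 1022 against 567, 579, and 509 CPM (log2 1.03), and *Col6a3* at 1145, 1260, and 1314 against 944, 851, and 890 CPM (log2 0.60, adjusted p = 0.000358). They were higher in every mouse. The fibrillar collagen genes *Col3a1* and *Col5a1* were lower, *Col3a1* at 4042, 4739, and 4941 against 9101, 8335, and 7958 CPM (log2 -0.76) and *Col5a1* at 208, 243, and 227 against 559, 575, and 541 CPM (log2 -1.17), while *Col5a2* (542, 561, and 584 against 669, 585, and 634 CPM) and *Col5a3* did not pass the test. *Col12a1* stood at 7.56, 8.44, and 0 against 100, 87.3, and 99.8 CPM, and *Col8a1* had no UMI in the members.

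In the basement membrane list, 6 of 15 genes were higher and 4 lower (2 lower without mouse 2, and 2 without mouse 4), against 14.4% and 17.2% of all genes, with a median of 0.0105. Beside *Npnt*, *Frem1*, which encodes an extracellular matrix protein of the Fraser complex, was far higher, at 223, 258, and 240 CPM against 12.3, 20.4, and 18.4 CPM (log2 3.95, SE 0.16, adjusted p = 2.4e-08). *Lamb1* (482, 621, and 458 against 314, 252, and 294 CPM, log2 1.00) and *Lamc1* (523, 606, and 524 against 386, 387, and 368 CPM, log2 0.67), laminin chains, were higher. The laminin chain *Lamb2* was lower (200, 209, and 152 against 338, 299, and 314 CPM, log2 -0.63), and *Lama2*, *Lama4*, and *Hspg2* did not pass the test.

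The integrin that binds nephronectin has an alpha-8 chain. Like *Npnt*, *Itga8* was higher in the members than in other collagen cells, at 765, 772, and 735 CPM against 254, 329, and 271 CPM (log2 1.55, SE 0.107, adjusted p = 6.99e-07). *Itgb1*, which encodes its partner chain, was lower, at 607, 685, and 694 against 962, 896, and 945 CPM (log2 -0.36, adjusted p = 0.0087), a call lost without mouse 2 and without mouse 4. Of 13 integrin genes tested, 2 were higher and 8 lower (5 lower without mouse 4), against 14.4% and 17.2% of all genes, with a median of -0.711. *Itga4* stood at 0, 3.38, and 0 against 93.2, 70.9, and 82.8 CPM and *Itga9* at 52.9, 82.7, and 51.3 against 304, 304, and 313 CPM (log2 -2.15). *Itga1* was lower too, at 41.6, 27.0, and 38.5 against 143, 109, and 136 CPM.

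Elastic fibre genes went in both directions. *Eln* stood at 12414, 12359, and 10210 CPM in members against 33704, 28952, and 28805 CPM in other collagen cells (log2 -1.25, SE 0.126, adjusted p = 1.37e-05), so it was lower and yet remained a major transcript. *Fbln5*, which guides elastin onto microfibrils, was higher at 1054, 821, and 649 against 151, 189, and 159 CPM (log2 2.47), and so were *Mfap5* (669, 474, and 495 against 240, 282, and 173 CPM), the crosslinking oxidases *Lox* and *Loxl1* (771, 819, and 735 against 464, 458, and 448 CPM), and *Fbn1*. *Fbn2* was lower (3.78, 5.07, and 7.33 against 75.8, 84.4, and 75 CPM, log2 -3.72), as were *Loxl2* and *Ltbp2* (393, 182, and 300 against 1642, 1327, and 1620 CPM, log2 -2.26). Of 19 genes tested, 10 were higher and 7 lower, against 14.4% and 17.2% of all genes, with a median of 0.488.

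Complement genes were mostly higher. Of 9 tested, 6 were higher and 1 lower, against 14.4% and 17.2% of all genes, with a median of 1.34. *C7* stood at 155, 179, and 148 CPM against 4.00, 8.10, and 5.88 CPM (log2 4.89, SE 0.202, adjusted p = 2.4e-08). *Serping1*, the C1 inhibitor, stood at 939, 827, and 810 against 325, 331, and 287 CPM (log2 1.58). The groups were apart for both genes. *C4b* was lower, at 0, 10.1, and 11 against 49.9, 61.3, and 31.4 CPM, and *C3* (24.6, 3.38, and 1.83 against 25.4, 21.8, and 11.3 CPM) did not pass the test. Reads of *C1ra* and its near copy *C1rb* may have been split in counting, and the same holds for *Hspa1a* and *Hspa1b* and for the paired globin genes.

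Beside *Tcf21*, more transcription factors of lung mesenchyme were lower than higher. Of 26 tested, 6 were higher and 14 lower, against 14.4% and 17.2% of all genes, with a median of -0.732. *Meox2*, a homeobox factor of mesoderm, was the outstanding higher gene, at 363, 265, and 328 CPM against 13.0, 28.5, and 18.7 CPM (log2 4.13, SE 0.223, adjusted p = 1.17e-07). Of the comparator's *Meox2* UMIs, 72.4% lay in the 76 cells that met the marker threshold. *Tbx2* (677, 680, and 614 against 545, 451, and 499 CPM, log2 0.53) and *Hoxa5* (138, 162, and 192 against 92.2, 90.8, and 114 CPM, log2 0.86) were higher by less. *Foxf1*, a hedgehog-responsive factor of lung mesenchyme, was lower at 22.7, 37.1, and 42.1 against 132, 115, and 152 CPM (log2 -1.83), as were *Tbx5* (96.4, 111, and 147 against 242, 208, and 250 CPM, log2 -0.85), *Tbx3*, *Gata6*, and *Foxp1* (79.4, 47.3, and 89.8 against 437, 410, and 508 CPM, log2 -2.52). *Tbx4* (249, 333, and 286 against 332, 302, and 325 CPM), *Foxf2*, and *Nfib* did not pass the test.

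No Notch gene was higher in the members. Of 11 tested, 7 were lower, against 17.2% of all genes, with a median of -1.37. *Notch3*, the receptor of mural cells, stood at 22.7, 16.9, and 3.66 CPM against 240, 178, and 196 CPM (log2 -3.69, adjusted p = 2.74e-06), the ligand *Jag1* at 1.89, 0, and 5.5 against 39.3, 52.8, and 46.6 CPM, and the target *Heyl* at 28.3, 47.3, and 55.0 against 145, 109, and 117 CPM. *Nrarp* had no UMI in the members. The gene the study is about, *Dll4*, stood at 5.67, 1.69, and 7.33 CPM in members and 2.61, 9.06, and 8.51 CPM in other collagen cells. The member values were of a few UMIs, and the groups overlapped (log2 -0.34, SE 0.737, adjusted p = 0.782). *Notch2* (43.5, 49.0, and 66.0 against 52.9, 52.8, and 45.0 CPM) and *Hes1* did not pass the test.

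Genes of neighbouring contractile types were mostly lower. Of 13 alveolar myofibroblast genes other than *Aspn*, 12 were lower and 1, *Nrep*, was higher, against 17.2% and 14.4% of all genes, with a median of -4.43. *Acta2*, smooth muscle actin, stood at 200, 89.5, and 115 CPM in members against 3257, 3275, and 2955 CPM (log2 -4.43, SE 0.211), *Tgfbi* at 3.78, 6.75, and 11 against 1291, 1172, and 1464 CPM (log2 -7.37), and *Mustn1* at 17.0, 20.3, and 7.33 against 1185, 972, and 1001 CPM. Of 11 pericyte genes outside the rule 10 were lower and none higher (median -3.47), and of 7 smooth muscle genes outside the rule all 7 were lower (median -4.43), again beside 17.2% of all genes. The rule kept cells high in *Aspn*, *Myh11*, *Higd1b*, and *Cox4i2* out of the members and the comparator held them. The lower counts of these 3 lists therefore follow in part from the choice of cells and are a description. The summed pericyte genes came to 382, 346, and 412 CPM in members, led by *Gucy1a1*, against 2925, 2161, and 2413 CPM. *Rgs5*, *Trpc6*, and *Actc1* were at 0. The 4 chondrocyte genes were lower, with *Col2a1*, *Acan*, and *Col9a1* at 0 in all members, and without mouse 4 the call of *Acan* was lost. Of the *Agt* and *Stc1* fibroblast list 2 genes lay outside the rule, *Pdgfra* and *Egflam*, and neither was higher.

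Adventitial fibroblast genes did not move as a group. Of 14 tested, 6 were higher and 6 lower (3 lower without mouse 2), against 14.4% and 17.2% of all genes, with a median of -0.0135. *Dpt*, dermatopontin, stood at 1446, 1606, and 1513 CPM against 354, 515, and 329 CPM (log2 2.06), *Gsn* at 4241, 4299, and 3721 against 1365, 1474, and 1101 CPM (log2 1.77), and *Clec3b* at 612, 517, and 522 against 85.9, 133, and 59.0 CPM (log2 2.71, adjusted p = 4.86e-06). *Col14a1* was lower at 52.9, 62.5, and 126 against 310, 351, and 250 CPM (log2 -1.78, adjusted p = 0.000132). *Dcn* was lower at 102, 191, and 202 against 345, 552, and 280 CPM (log2 -1.11, adjusted p = 0.00886), and its call was lost without mouse 2 and without the 76 comparator cells that met the marker threshold. The 9 members described above held nearly all of the *Dcn* left in the members.

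Markers of other tissues were low in the members, with *Ramp2*, *Sftpc*, and *Upk1b* as the most abundant of their lists. The immune genes outside the rule summed to 5.67, 6.75, and 7.33 CPM in members, led by *Laptm5*, against 35.6, 67.9, and 40.2 CPM, and the endothelial genes to 77.5, 82.7, and 66.0 CPM, led by *Ramp2*, against 320, 494, and 730 CPM. The epithelial genes summed to 325, 133, and 185 CPM, nearly all of it *Sftpc*, which was found in 85.9% of members, 84.2% of other collagen cells, and 73.9% of B cells, while *Cdh1* and *Krt8* were at 0. All 6 endothelial and all 6 epithelial genes were lower, beside 17.2% of all genes, but no call of either list was left once comparator cells with a *Ptprc*, *Cdh5*, or *Epcam* UMI were set aside, and no epithelial call once marked doublets were. Of 4 immune genes tested, 3 were lower (1 without marked doublets). None of 5 red cell genes reached the test. Of the mesothelial list *Msln*, *Wt1*, *Upk3b*, and *Lrrn4* were at 0 in all members, and *Upk1b*, which encodes a uroplakin, was higher at 295, 211, and 220 against 4.87, 18.3, and 11 CPM.

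Few members were dividing, and immediate early genes were low. At least 3 UMIs of dividing cell genes were found in 2 of 127 members (1.57%, exact 95% binomial interval 0.191% to 5.57%), both from mouse 2 (5.41% of its members). Among other collagen cells, 55 of 1392 reached that count (3.95%, 2.99% to 5.11%). The intervals overlap. They pool cells over the 3 mice and leave out the spread between mice, so they do not test a difference. Of 8 dividing cell genes tested, 4 were lower and none higher (2 lower without mouse 3, and 1 without mouse 4), also against 17.2% lower of all genes. *Mki67* stood at 3.78, 0, and 0 CPM against 32.5, 80.0, and 51.4 CPM. Of 14 genes that dissociation is known to induce, 11 were lower and none higher, against 17.2% and 14.4% of all genes, with a median of -2.15. *Fos* stood at 13.2, 18.6, and 20.2 CPM against 138, 189, and 236 CPM (log2 -3.29, adjusted p = 5.77e-06) and *Jun* at 34.0, 49.0, and 45.8 against 281, 323, and 346 CPM (log2 -2.74). Their part in the other differences was not tested.

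**Figure D5:**
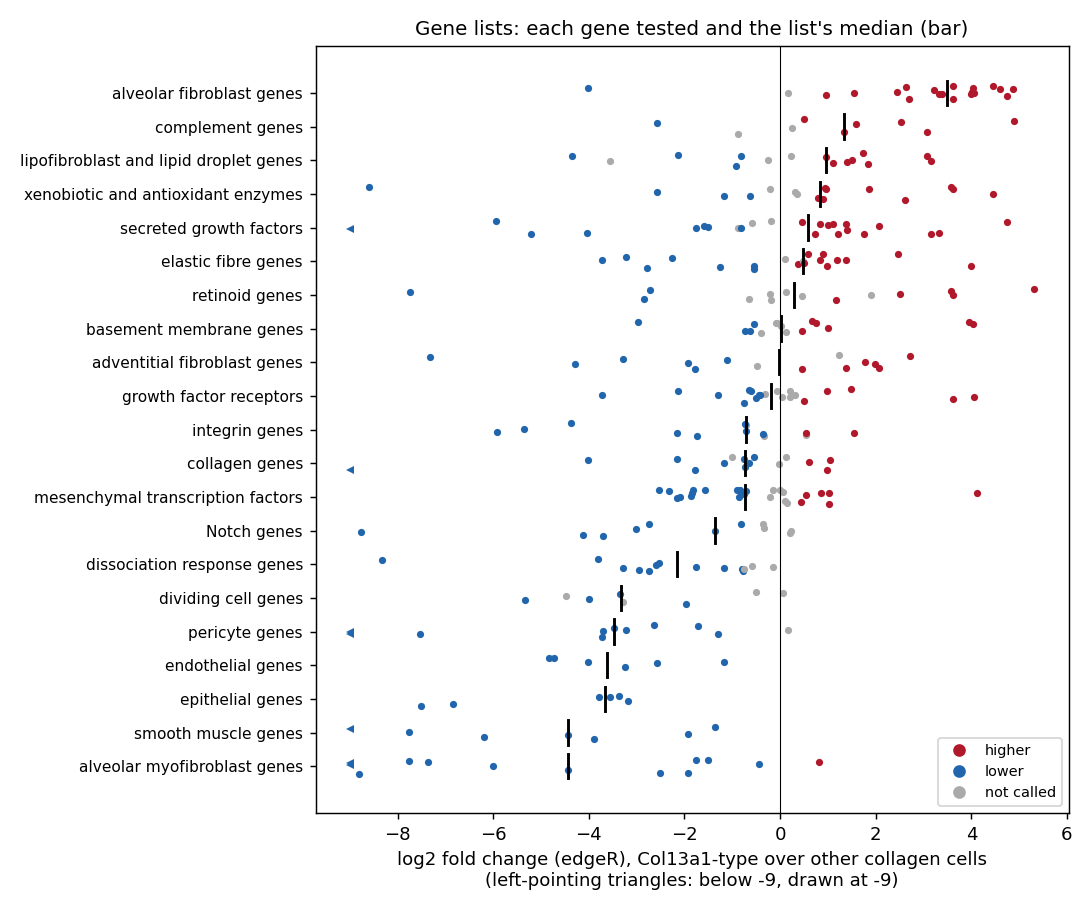
Log2 difference of members over other collagen cells (horizontal axis, edgeR) of each gene tested (points) in each gene list (rows), with the list's median as a bar and genes below -9 drawn at -9. Alveolar fibroblast genes lie to the right with a median of 3.5, and the myofibroblast and smooth muscle lists to the left with a median of -4.43.

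The members were also compared with classes picked by a marker gene, which are not pure cell types. Aspn-type cells (37, 45, and 52 cells) had at least 3 UMIs of *Aspn* and met the other limits of the rule on *Agt*, *Stc1*, *Myh11*, pericyte, immune, endothelial, and epithelial genes. Against them 814 of 8338 genes (9.76%) were higher in the members and 865 (10.4%) lower, 20.1% in all, and 494 were higher without mouse 2. Of the 134 Aspn-type cells, 37 also met the threshold on the 3 marker genes. Their adventitial fibroblast genes summed to 12316, 13940, and 9895 CPM, above their myofibroblast genes at 4370, 3218, and 5051 CPM, and in mouse 3 their chondrocyte genes summed to 3149 CPM. Of 12 adventitial genes tested 6 were lower in the members and none higher, beside 10.4% and 9.76% of all genes. *Npnt* stood at 480, 1281, and 853 CPM in Aspn-type cells (6.48-fold higher in members) and *Mfap4* at 5395, 6275, and 3871 CPM (4.14-fold). The 37 Aspn-type cells over the marker threshold pooled to 2127 CPM of *Npnt* and 9511 CPM of *Mfap4*. Both values were above the class value of every mouse, so these cells raised the class levels and made both folds smaller. *Hsd11b1*, which regenerates active glucocorticoid, stood at 620, 637, and 535 CPM in members against 49.7, 96.7, and 73.2 CPM (log2 3.03, SE 0.183, adjusted p = 3.37e-10). The other leading genes upward were *Crabp1* (log2 3.65, and 4.34 without mouse 3), *Mettl21e*, *Mapt*, and *Gja5*.

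Downward, *Postn*, the matricellular protein periostin, led at 5.67, 1.69, and 1.83 CPM in members against 917, 630, and 769 CPM in Aspn-type cells (log2 -7.90, SE 0.299, adjusted p = 2.01e-13), followed by *P4ha3*, *Pi16*, *Tgfbi*, and *P2ry14*, of which *P4ha3* and *Pi16* had 1 UMI each in all members. Of 15 collagen genes 9 were lower and 1, *Col18a1*, was higher, against 10.4% and 9.76% of all genes. *Col3a1* stood at 23120, 18196, and 19412 CPM in Aspn-type cells (4.38-fold lower in members), while *Col6a1* (1430, 1389, and 1078 CPM there) did not pass the test. Of 12 alveolar myofibroblast genes 8 were lower and 1, *Nrep*, was higher, and *Pdgfra* (443, 395, and 359 CPM in Aspn-type cells) did not pass. *Gpc3*, higher against other collagen cells, did not pass here (464, 730, and 499 CPM in Aspn-type cells, log2 0.24, adjusted p = 0.686).

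Agt/Stc1-type cells (58, 63, and 79 cells) had at least 3 UMIs of *Agt* and *Stc1*. They also met further limits, since 761 other collagen cells reached that count. Against them 1389 of 8338 genes (16.7%) were higher in the members and 1173 (14.1%) lower, 30.7% in all. *Npnt* stood at 18.9, 11.7, and 121 CPM in them (log2 6.82, and 8.73 without mouse 4) and *Limch1* at 4.73, 4.39, and 45.0 CPM (log2 7.55, and 9.72 without mouse 4). Mouse 4 gave by far the highest value of both. *Ablim3*, *Wnt2*, *Shisa2*, and *Vipr2*, the receptor of vasoactive intestinal peptide, had no UMI there. *Ablim3* stood at 244, 233, and 227 CPM in members and was at least 176-fold higher, *Wnt2* at least 123-fold, *Shisa2* at least 122-fold, and *Vipr2* at least 59.4-fold. Complement genes were higher in 7 of 9 and retinoid genes in 7 of 11, with 1 retinoid gene lower (0 without mouse 3), against 16.7% higher and 14.1% lower of all genes. Against Aspn-type cells, 2 of 9 complement genes were higher and 3 lower, and 4 of 11 retinoid genes were higher and 1 lower. There, 9.76% of all genes were higher and 10.4% lower.

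In the other direction *P2ry14*, a receptor of UDP-sugars, stood at 0, 0, and 5.5 CPM in members against 1364, 1317, and 1320 CPM in Agt/Stc1-type cells. *Egfem1* (531, 538, and 564 CPM there) had no UMI in members and was at least 304-fold lower, and *Trim67*, *Lmcd1*, and *Dusp10* were at 0 as well. *Pdgfra* was clearly lower here, at 1657, 1800, and 1514 CPM in Agt/Stc1-type cells (log2 -2.11, SE 0.153, adjusted p = 3.83e-10). All 5 dividing cell genes tested were lower (3 without mouse 3), beside 14.1% of all genes, with *Mki67* at 102, 214, and 115 CPM there. These sums rest on few cells, since 5 of 200 Agt/Stc1-type cells (2.5%, exact 95% binomial interval 0.817% to 5.74%) had at least 3 UMIs of dividing cell genes, and the interval overlaps that of the members. Both intervals pool cells over mice and leave out the spread between mice. *Dcn*, *Col14a1*, and *Col15a1* were higher in the members, but without the 9 members that carried adventitial genes their log2 differences turned to -1.77, -1.57, and -0.995.

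A comparison with Col14a1-type adventitial cells was set up after the data had been seen, since the cells first defined for it numbered 7, 12, and 3. It used 8, 18, and 8 cells with 10 or more UMIs of *Col14a1*, *Dcn*, and *Serpinf1*, at most 5 UMIs of the 3 marker genes, and at most 50000 UMIs in all. No limit was set on *Aspn*, so this class and the Aspn-type class can share cells. In mouse 3 the deepest cell of each had 29111 UMIs. The comparisons with these classes are therefore not separate evidence. The sums were small, 102968, 248154, and 105478 UMIs. In this fit 637 of 6075 genes (10.5%) were higher in the members and 622 (10.2%) lower, 20.7% in all, and 418 were higher without mouse 3. *Npnt* stood at 29.1, 52.4, and 28.4 CPM in the Col14a1-type cells (127-fold higher in members) and *Mfap4* at 5264, 4070, and 4920 CPM (4.17-fold). *Cpm*, carboxypeptidase M (703, 844, and 758 CPM in members), and *Ces1d* had no UMI in the Col14a1-type cells and were at least 117-fold and at least 116-fold higher, and *Slc7a10*, *Upk1b*, and *Crabp1* were at 0 there too.

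The lower genes of that fit were led by *Postn* (2855, 1555, and 1536 CPM in Col14a1-type cells, log2 -9.28, SE 0.378, adjusted p = 3.48e-12), *Pi16*, *Itgbl1*, *Tgfbi*, and *Prss12*. *Col3a1* stood at 39672, 28966, and 44768 CPM there (8.88-fold lower in members). No collagen gene of 12 was higher in the members and 9 were lower, beside 10.5% higher and 10.2% lower of all genes. *Dpt* (2117, 1680, and 1498 CPM in Col14a1-type cells against 1446, 1606, and 1513 CPM in members, log2 -0.30, adjusted p = 0.202) and *Gsn*, both higher against other collagen cells, did not pass. Of 21 mesenchymal transcription factors tested 8 were higher and 7 lower, against 10.5% and 10.2% of all genes, with *Tbx4* (9.71, 32.2, and 28.4 CPM there, 10.3-fold higher in members) and *Meox2* among the higher and *Prrx1*, *Gata6*, and *Foxp1* among the lower. Of 9 complement genes 4 were lower, *C3*, *C4b*, *C1s1*, and *C1ra*, and *C7* was higher (2 higher without mouse 3).

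Members of the 3 mice were close to each other. Of 2927 genes at 50 CPM or more in every mouse's members, the median coefficient of variation over mice was 11.7% and its 90th percentile 22.1%, and 20 genes differed at least 2-fold between the highest and the lowest mouse. *Adamts8*, a secreted metalloproteinase, had the widest spread, at 181, 96.2, and 66.0 CPM. *Sftpc* (308, 122, and 172 CPM), *Col14a1* (52.9, 62.5, and 126 CPM), and *Tnc*, tenascin C (299, 463, and 225 CPM), were also among the 20. Which mouse was highest differed from gene to gene.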

How the data were processed

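Fresh digests of whole lung from 3 pups were made into 10x 3′ v3 libraries by the authors, who processed each library separately with Cell Ranger 3.0.2 and deposited raw UMI counts for 28692 features (build mm10, per the submitters' processing notes; the annotation is not given in the sources used here). The deposited counts were not normalized and list 3034, 3135, and 3475 cells, with 23744510, 22476491, and 25192427 UMIs and at least 500 UMIs in each cell.

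Cells were kept from 200 genes upward and up to 20% mitochondrial UMIs, members were found by the rule, and UMIs were summed per mouse and class. Members and lists were chosen with earlier results of these data known. Sums were compared with edgeR 4.0.16 (R 4.3.3; quasi-likelihood test, TMM, filterByExpr, Benjamini-Hochberg over all genes, adjusted p under 0.05), with Aspn-type and Agt/Stc1-type cells in 1 fit that shares its estimate of the spread and with Col14a1-type cells in a fit of their own. Genes in the text belong to 27 lists or are the 15 (other collagen cells) or 5 (marker-defined classes) with the largest difference each way, past the test, at 50 CPM or more in each mouse on the higher side and without overlap. *Adamts8*, *Tnc*, *Xist*, and *Ddx3y* lie outside this rule and were chosen after their values were seen. Of 325 list genes all were in the files. CPM were not divided by length, as 3′ UMI counts need no length scaling. Sums of 1 number come from 1 animal, so mice pair the classes, and the correlation of their deviations from class means over 3622 genes was 0.135, 0.0484, and 0.0495 between members and other collagen cells. On simulated counts with 200 genes changed 4-fold among 11547, edgeR recovered 99% and called 0.0529% of unchanged genes. The changed genes were drawn only from those above a minimum mean level, and the spread was that fitted to these data. The 99% therefore does not cover genes at low levels, and fewer genes were changed than were called in the data. Doublets were scored with Scanpy 1.11.5, marked at 0.8% per 1000 cells and kept. Intervals cover counting error only. A fold against a class at 0 uses 3 UMIs over that class. Alternatives were DESeq2 1.42.0, RLE scaling, tests without the low-count filter, a block for the mouse, each mouse left out, other cell filters, thresholds of 3 and 12 UMIs, doublets removed, thinning, and narrower comparators. Bulk RNA-Seq and staining data of the study were not analysed here. Some genes of the lists, counted with them, are not reported here by name. Exons of *Egfl7*, *Ramp2*, *Fgfr2*, and *Foxp1* overlap another gene on the same strand, so their counts are uncertain.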

Additional observations from a re-analysis of the deposited data

How the results depend on the processing

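Each cell's thinning to 2000 UMIs changed the counts of genes most, to 577 higher and 618 lower against other collagen cells, 254 and 202 against Aspn-type cells, 415 and 278 against Agt/Stc1-type cells, and 169 and 112 against Col14a1-type cells. Without the filter on low counts 977 genes were lower against Col14a1-type cells. With each mouse left out in turn, 494 to 665 genes were higher against Aspn-type cells, 418 to 544 against Col14a1-type cells, and members were 1.55% to 1.72% of cells. The share was 2.15% when 500 genes were needed and 10% mitochondrial UMIs allowed, 1.33% with no filter on cells, and 1.32% with a threshold of 12 UMIs. The log2 difference against other collagen cells reversed for *Sftpc* (0.10), *Sftpb* (0.17), *Egfl7* (0.93), and *Calcrl* (0.15) when comparator cells with a *Ptprc*, *Cdh5*, or *Epcam* UMI were left out, and for *Pnpla2* (0.29) when cells were thinned. It reversed for *Top2a* against Aspn-type cells without mouse 4 (0.85, the highest, with -5.27 without mouse 3 the lowest) and with Aspn-type cells of at most 5 UMIs of the 3 genes (0.77), for *Ltbp3* against Col14a1-type cells when thinned (0.27), and for *Dcn* (-1.77), *Col14a1* (-1.57), and *Col15a1* (-0.995) against Agt/Stc1-type cells without the 9 members with adventitial genes. The cause was not tested beyond the construction of each setting. Over all settings, 9863 of the values recomputed for single genes gave the main direction and call, 473 lost significance, and 11 reversed. The mouse as a replicate block gave 1621 higher and 1942 lower genes against other collagen cells and ended 9 calls of single genes over the 4 comparisons, *Itga5*, *Meox1*, and *Rspo3* against other collagen cells among them. Comparators that share the member sums are not independent of each other, and genes with few UMIs in members are limited by depth, since 3 UMIs over all members are 1.80 CPM.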

Other observations

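*Xist* UMIs were found in the members of mouse 4 (1205 UMIs) and none in those of mice 2 and 3, whose members held 53 and 60 UMIs of the Y-linked gene *Ddx3y* against 0 in mouse 4. No test of sex was made, since 1 mouse stood against 2. Of the deposited cells that the cell filter left out, 1 met every clause of the rule.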
